A study of Homo sapiens with 4 samples.

Results

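The cytosolic ribosomal protein genes were examined in ES-2 cells, a human ovarian cancer line that carries the endogenous YAP1-MAML2 (YM) fusion, after depletion of MAML2 and the fusion. The genes were taken by symbol: RPL and RPS genes with a number, the stalk genes RPLP0 to RPLP2, RPSA, and the paralogs RPL7L1, RPL22L1, RPL26L1, RPL36AL, RPL39L and RPS27L. This rule gave 83 of the 19626 genes in the deposited tables, 32 of the small subunit and 51 of the large subunit. All 83 passed the limit on low values, an RPKM (reads per kilobase of gene length, scaled to sequencing depth) above 1 in at least 1 library, so none was lost before testing.

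The cells received pLKO.1 lentivirus with a nontargeting shRNA (shCtl, n = 2 biological replicates) or with an shRNA against MAML2 (shMAML2, n = 2), for 8 h on consecutive days, and RNA was taken 96 h after the first infection. These times are those of the labels, and the study's methods give a shorter transduction. Both groups share the line, the vector and the infection. The knockdown rests on 1 hairpin sequence, which targets MAML2 and the fusion together, so that an effect of the hairpin itself and of each target cannot be told apart here. Total RNA was sequenced without strand information, and the estimated counts per library summed to between 20051083 and 23978660. Each change is a log2 fold change, shMAML2 over shCtl, and comes with its standard error (SE) from a quasi-likelihood fit in edgeR. P-values were adjusted by Benjamini and Hochberg's method over every gene in that fit. Levels in single libraries are CPM (counts scaled to library size with edgeR's TMM factors) unless RPKM is named.

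The MAML2 gene count, which can hold reads of the native and the fusion transcript, fell to 37.9% of its control level, with an RPKM of 8.61 and 8.26 in shCtl against 3.11 and 2.998 in shMAML2. Of 6 epithelial markers, KRT7, KRT8 and KRT18 were expressed and fell in shMAML2, with log2 fold changes of -1.26, -1.22 and -0.68, and KRT19, EPCAM and CDH1 stayed at or under an RPKM of 0.361. The clear cell carcinoma markers NAPSA and PAX8 did not exceed 0.369 in any library, so the labelled tumor type was not visible in them. The summed RPKM of 7 leukocyte, endothelial and fibroblast markers was 1.067 and 0.568 in shCtl and 3.74 and 1.06 in shMAML2, with PTPRC, CD3E, DCN and LUM near 0. Of these markers 2 passed an RPKM of 1 in a library, LYZ and PECAM1, the latter going from a mean of 0.0342 to 1.12. LYZ was at 0.945 and 0.423 in shCtl and at 2.34 and 0.129 in shMAML2. The other endothelial marker, VWF, went from a mean of 0.0572 to 0.0039. Of the mesenchymal markers, VIM fell by 0.44 and CDH2 rose by 0.34. The part of these markers in the results below was not tested.

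The ribosome is built from a small subunit, which decodes the mRNA, and a large subunit, which forms the peptide bond, and each holds its own set of proteins around ribosomal RNA. Cells make these proteins in matched amounts, and growing cells spend much of their transcription on them. Most of the mRNAs begin with a run of pyrimidines, the 5′ terminal oligopyrimidine (TOP) motif, through which mTORC1 and the RNA-binding protein LARP1 control their translation. A few ribosomal proteins also have a paralog, a second gene whose product can take the place of the usual protein or acts beside it, often in selected tissues.

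The start sites of the paralogs that fell, of their usual partners and of RPS26, the usual member that fell furthest, are shown for this pyrimidine run, which differs clearly in the pairs of RPS27 and RPL26 and little in those of RPL22 and RPL36A. Each window runs from 10 bases before the annotated start through the first 20 bases of the transcript, 5′ to 3′ on the coding strand, from RefSeq promoters on GRCh38.p14, and capitals mark the longest run of C and T that reaches within 5 bases of the start.
RPL22 (chr1:6199576-6199605, minus strand): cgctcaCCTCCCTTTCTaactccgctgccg
RPL22L1 (chr3:170870176-170870205, minus strand): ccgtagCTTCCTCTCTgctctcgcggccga
RPS27 (chr1:153990752-153990781, plus strand): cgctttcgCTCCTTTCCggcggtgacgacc
RPS27L (chr15:63157458-63157487, minus strand): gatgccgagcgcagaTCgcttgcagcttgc
RPL26 (chr17:8383174-8383203, minus strand): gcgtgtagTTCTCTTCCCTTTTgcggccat
RPL26L1 (chr5:172958719-172958748, plus strand): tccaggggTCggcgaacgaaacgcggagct
RPL36A (chrX:101391001-101391030, plus strand): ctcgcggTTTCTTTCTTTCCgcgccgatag
RPL36AL (chr14:49620607-49620636, minus strand): TCTTCCCTTTCCTgttaggcgagagctgcg
RPL39 (chrX:119791611-119791640, minus strand): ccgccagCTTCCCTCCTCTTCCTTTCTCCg
RPS26 (chr12:56041908-56041937, plus strand): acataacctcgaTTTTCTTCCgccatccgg

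The run was 11, 9, 14, 13 and 22 bases long in the partners RPL22, RPS27, RPL26, RPL36A and RPL39. In RPS27L and RPL26L1 it was 2 bases long, whereas RPL22L1 had 10 and RPL36AL 15 (of which the window shows 13). RPL7L1, the paralog that rose, also had a run of 2 bases. RPL39L had no entry. RefSeq promoters matched 67 of the 83 members, 62 of them usual genes and 5 of them paralogs. A run of 8 bases or more was present in 47 of the 62 usual members (75.8%) and in 2 of the 5 paralogs, against 11.3% of all 27195 promoters of the same length in that table and 11.6% of those of tested genes.

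The usual ribosomal protein mRNAs moved little, while several of the paralogs fell strongly. Over all 83 members the median log2 fold change was -0.04, beside -0.0037 over the 12157 genes tested, and the middle 50% of members lay between -0.19 and 0.09, beside -0.45 and 0.44 for all genes tested. The median of the members was 0.028 without shMAML2 replicate 1 and -0.13 without shMAML2 replicate 2. At an adjusted p of 0.05 or less, 31 members (37.3%) fell, beside 36.4% of all genes tested, and 17 (20.5%) rose, beside 36.3%. The remaining 35 did not pass the test. A fold change of 2 or more was reached by 3 members that fell, RPL22L1, RPS27L and RPL39L, beside 8.93% of all genes tested, and by 0 that rose, beside 9.24%. Only 5 members changed by 1.5-fold or more, these 3 with RPL26L1 and RPS26, beside 39.1% of all genes tested. All 5 were called lower, beside 18.9% of all genes tested at that limit, and 0 higher, beside 18.9%. A log2 fold change between -0.2 and 0.2 was found in 58 of the 83, beside 24.2% of all genes tested. In bulk RNA, fewer cells of a kind and less RNA per cell cannot be told apart.

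**Figure D1:**
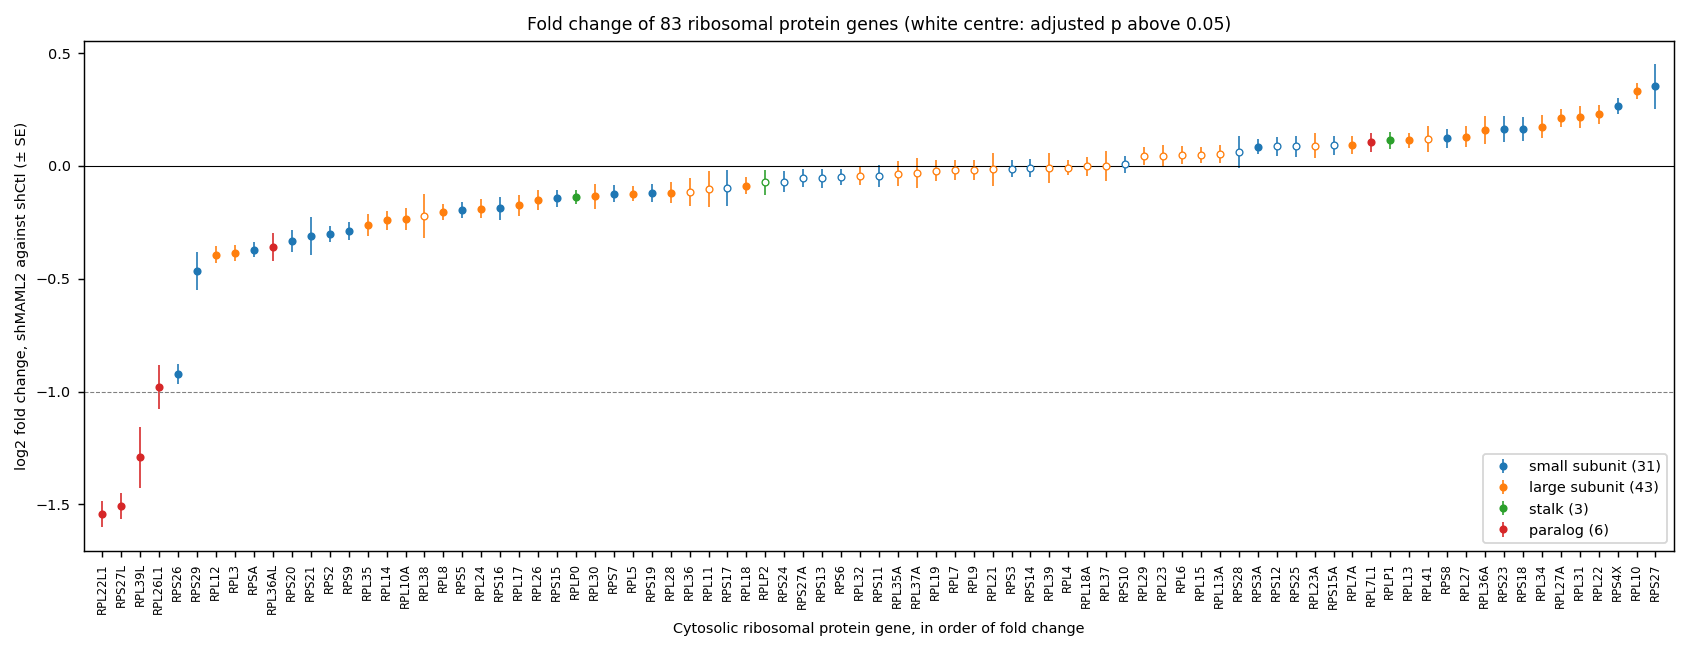
Log2 fold change of shMAML2 against shCtl (y axis, points with SE bars, 2 libraries per group) for each of the 83 ribosomal protein genes in order of fold change (x axis), colored by role, with a white centre for genes whose adjusted p was above 0.05. RPL22L1, RPS27L, RPL39L, RPL26L1 and RPS26 lie between -1.54 and -0.92, and the other 78 form a shallow slope from -0.46 to 0.35.

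These counts depended on the library and on the scaling. Replicate 2 was higher than replicate 1 in 81 of the 83 members in shMAML2, with a median log2 difference of 0.11, and in 30 of the 83 in shCtl, with a median of -0.02. Over all genes tested the same medians were 0.0079 and -0.00053. Without shMAML2 replicate 1, 25 members fell and 30 rose, beside 33.0% and 33.1% of all genes tested. Without shMAML2 replicate 2, 43 fell and 6 rose, beside 33.6% and 33.7%. Without shCtl replicate 1 there were 28 and 11 (33.5% and 34.0% of all genes), and without shCtl replicate 2 there were 30 and 14 (34.5% and 34.6%). Scaled by total counts alone, 37 fell and 10 rose, beside 38.4% and 34.1%. With limma on the log2(RPKM + 1) scale, which changed the scale and the test together, 36 fell and 5 rose, beside 39.6% and 31.5%. The median of all genes tested was -0.06 there. In all 13 settings tried, 23 members were called lower, beside 29.2% of all genes tested, and 5 higher, beside 28.8%, whereas RPL37 and RPL37A, not called here, were called in opposite directions in different settings.

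The replicate difference in shMAML2 had a median of 0.14 on the log2 scale in the 60 members with a coding length under 600 bases and of 0.08 in the 23 longer ones. In the 1359 tested genes under 600 coding bases that are not members it was 0.04. RPS27 (427.8 and 588 CPM in the 2 shMAML2 libraries), RPL38 (112 and 147) and RPS21 (174 and 224) were among the members that differed most, and the median log2 fold change of those 1359 short genes was -0.13. The part of transcript length in the members' changes was not tested.

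**Figure D2:**
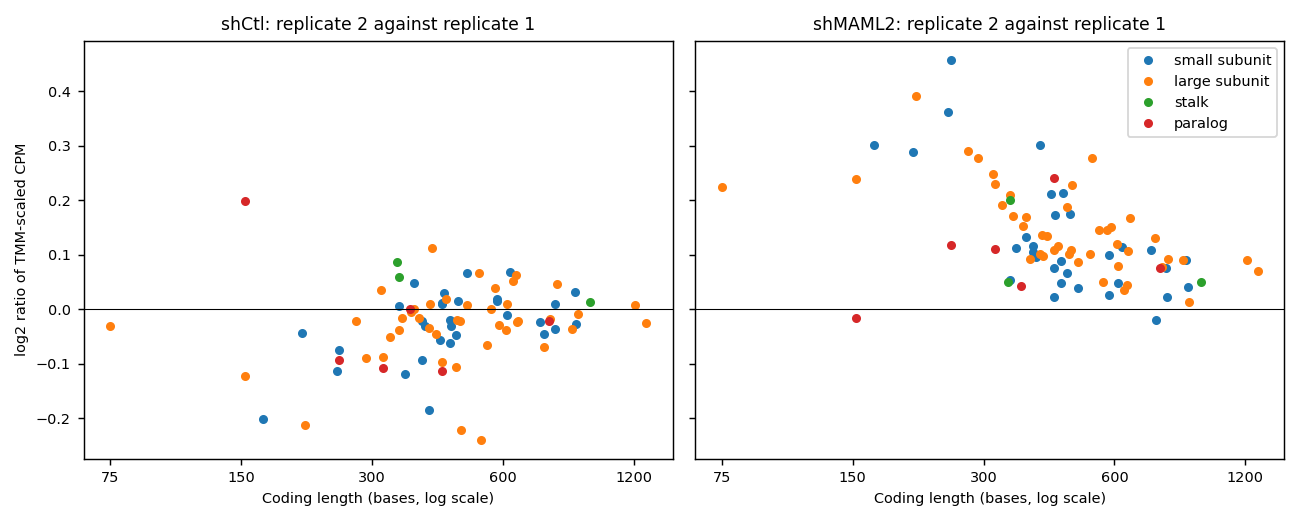
Log2 ratio of CPM in replicate 2 against replicate 1 (y axis) by coding length in bases (x axis, log scale) for the 83 members in shCtl (left) and shMAML2 (right), 1 point per gene, colored by role. In shMAML2 81 of 83 points lie above 0, with RPS27 (252 bases) and RPL38 (210 bases) highest, whereas in shCtl 30 lie above 0.

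The 4 members with the lowest log2 fold changes were paralogs, and of all 6 paralogs 5 were called lower (83.3%, beside 36.4% of all genes tested) and 1 higher (16.7%, beside 36.3%). RPL22L1, the paralog of the RNA-binding large subunit protein RPL22, lies on chr3:170864875-170870208 of hg38 (GENCODE v44). It measured 105 and 105 CPM in shCtl and 35.5 and 36.6 in shMAML2. Its log2 fold change was -1.54 (SE 0.0576, edgeR adjusted p = 2.92e-11), so that 34.3% remained. RPL22 itself (chr1:6185020-6209389) rose from 372 and 368 CPM to 419.7 and 447, a log2 fold change of 0.23 (SE 0.0424). The groups did not overlap in either gene, and the genes of this pair moved apart. In RPKM, RPL22L1 stood at 29.6% and 29.9% of RPL22 in shCtl and at 8.86% and 8.56% in shMAML2.

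RPS27L, a paralog of the small subunit protein RPS27 that is known as a p53 target gene, lies on chr15:63125872-63158021. It fell from 146 and 137 CPM to 47.7 and 51.8, a log2 fold change of -1.51 (SE 0.0579, edgeR adjusted p = 4.05e-11). RPS27 (chr1:153990762-153992155) had the highest log2 fold change of all members, 0.35 (SE 0.0988), from 407 and 387 CPM to 427.8 and 588. The rise of RPS27 rested on 1 library. Its log2 fold change was 0.11 (edgeR adjusted p = 0.057) without shMAML2 replicate 2, and the gene was not called with DESeq2 (adjusted p = 0.157) or on the log2(RPKM + 1) scale with limma (adjusted p = 0.105). RPS27L stood at 3.46% and 3.41% of the RPKM of RPS27 in shCtl and at 1.08% and 0.852% in shMAML2. The level of this ratio depends on the gene lengths, which counts and RPKM put at 7208 bases for RPS27L and 697 for RPS27. In CPM the shCtl means were 141 for RPS27L and 397 for RPS27.

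RPL39L encodes a paralog, best known from the testis, of RPL39, a small protein of the peptide exit tunnel, and lies on chr3:187120948-187180908. It had 339 and 398 estimated counts in shCtl against 176 and 156 in shMAML2, or 16.7 and 19.2 CPM against 7.38 and 7.30. This was the lowest level in CPM among the members, and its log2 fold change was -1.29 (SE 0.134, edgeR adjusted p = 1.18e-06). RPL39 did not pass the test, at 207 and 189.9 CPM in shCtl and 181 and 214 in shMAML2, and the 95% interval of its log2 fold change ran from -0.15 to 0.14. The ratio of RPL39L to RPL39 in RPKM was 4.35% and 5.43% in shCtl and 2.19% and 1.83% in shMAML2.

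RPL26L1 (chr5:172958729-172969771), a close copy of the large subunit protein RPL26, fell from 39.1 and 36.2 CPM to 17.5 and 20.7. Its log2 fold change of -0.98 (SE 0.0973, edgeR adjusted p = 7.76e-07) lay just short of 2-fold, and it lay between -1.10 (without shMAML2 replicate 2) and -0.86 (without shMAML2 replicate 1) over the settings. RPL26 fell less, by 0.15 on the log2 scale (SE 0.0440), from 1360.3 and 1272 CPM to 1139.7 and 1229. That call was lost without shCtl replicate 1 or without shMAML2 replicate 1. RPL26L1 overlaps an annotated antisense RNA, RPL26L1-AS1, and libraries without strand cannot separate their reads.

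RPL36AL, an autosomal copy of the X-linked RPL36A, fell by 0.36 (SE 0.0615), from 86.2 and 80.0 CPM to 62.4 and 67.3. RPL36A had 230.2 and 217 CPM in shCtl and 229.97 and 269.6 in shMAML2, so its groups overlapped. Its log2 fold change of 0.16 passed (edgeR adjusted p = 0.035) and was lost with total counts, with filterByExpr, on the RPKM scale and without shCtl replicate 2 or shMAML2 replicate 2. RPL7L1, which acts in the assembly of the large subunit rather than as a copy of RPL7, was the paralog that did not fall. It had 259 and 255.1 CPM in shCtl and 269.2 and 284 in shMAML2, a log2 fold change of 0.10 (SE 0.0427) that passed the test in the main setting (edgeR adjusted p = 0.0412) and in 4 of the 13 settings in all. RPL7 had a log2 fold change of -0.02 and did not pass the test.

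Set against its partner in the same library, each of the 5 paralogs that fell had a lower ratio in both shMAML2 libraries than in both shCtl libraries. These 5 are described because they fell, and with 2 libraries a group such separation is common: in CPM the groups did not overlap in 43.0% of all genes tested on the lower side and in 42.6% on the higher. The difference in the log2 ratio was -1.84 for RPS27L (SE 0.170, n = 2 per group), -1.77 for RPL22L1 (0.0257), -1.28 for RPL39L (0.205), -0.83 for RPL26L1 (0.0667) and -0.51 for RPL36AL (0.0607). For RPL7L1 it was 0.12 (0.0364), and there the groups did not overlap either. With 2 libraries against 2, an exact permutation test of a single ratio cannot go below p = 0.333 (two-sided). A ratio cancels the scaling of the library, since both genes are divided by the same factor.

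**Figure D3:**
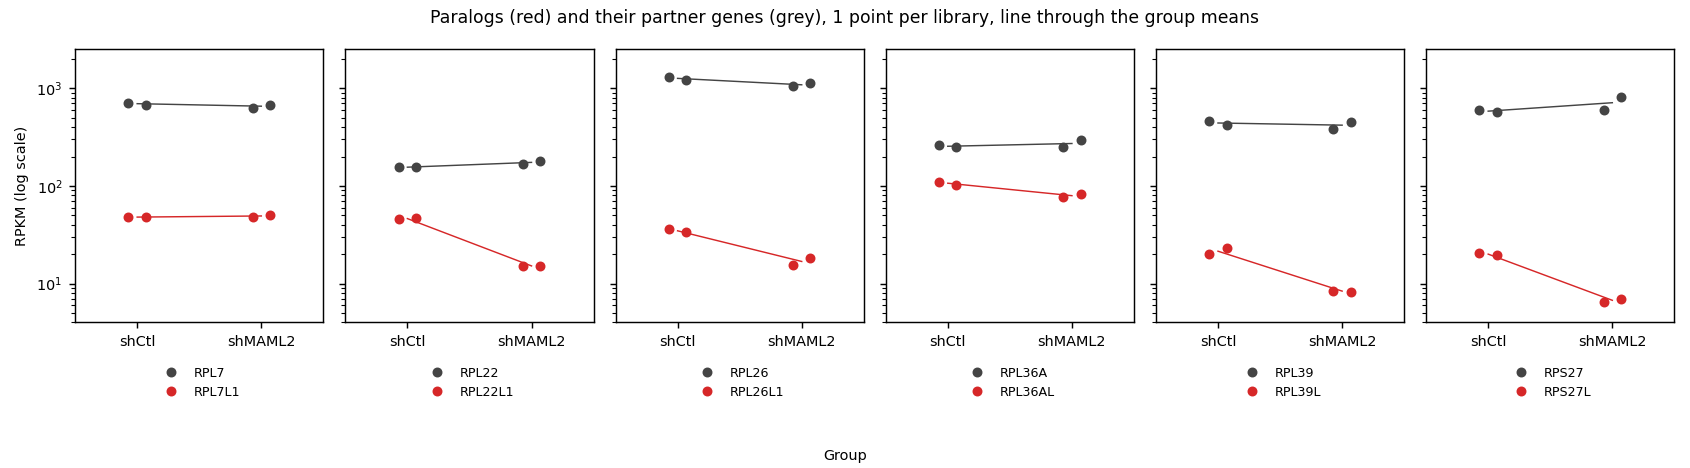
RPKM (y axis, log scale) of each paralog (red) and its partner (grey) in the 2 shCtl and 2 shMAML2 libraries, 1 point per library, with a line through the group means. The red points of RPL22L1 (46.3 to 15.2 on average), RPL26L1 (34.7 to 16.8), RPL39L (21.5 to 8.37) and RPS27L (20.03 to 6.74) drop steeply, and their grey partners change less.

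The levels of the paralogs were below those of their partners, and their reads can be confused with those of near copies. In shCtl their mean share of the partner's RPKM ran from 2.75% for RPL26L1 to 41.8% for RPL36AL. These shares also depend on the length assigned to each gene, most plainly for RPS27L. Ribosomal protein genes have many processed pseudogenes, and the authors removed ambiguous and poorly mapped reads. The annotation names a median of 12 pseudogenes per member, up to 133 for RPL21, and names none for RPL22L1, RPL26L1, RPL36AL, RPL39L and RPS27L. Of 29 ribosomal protein pseudogenes in the deposited tables, 13 were expressed enough to test, of which 3 fell (23.1%, beside 36.4% of all genes tested) and 1 rose (7.69%, beside 36.3%), with a median log2 fold change of -0.44. RPL13AP5 reached an RPKM of 152 in shCtl and 150.2 in shMAML2, and no other tested pseudogene had a mean above 8.81. How reads were divided between members and their pseudogenes was not tested.

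Among the usual small subunit proteins, RPS26 stood apart. RPS26, which lies beside the mRNA exit channel and is mutated in Diamond-Blackfan anemia, is on chr12:56041351-56044697. It measured 180.2 and 181 CPM in shCtl and 93.6 and 97.2 in shMAML2, a log2 fold change of -0.92 (SE 0.0450, edgeR adjusted p = 4.98e-10). Of its control level 52.8% remained, and over the 13 settings its log2 fold change stayed between -0.99 and -0.89. The annotation names 36 pseudogenes after RPS26. Its dedicated chaperone TSR2, which is no member, rose by 0.39 on the log2 scale (SE 0.0803), from an RPKM of 5.25 to 6.58.

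Of the 31 usual small subunit genes, 12 fell (38.7%, beside 36.4% of all genes tested), 6 rose (19.4%, beside 36.3%) and 13 did not pass the test, with a median log2 fold change of -0.05. RPS29, a short zinc-binding protein, fell from 172 and 149 CPM to 104 and 128 (-0.46, standard error 0.0831), and its value ranged from -0.62 to -0.32 over the settings. RPSA, also known as a laminin receptor precursor, fell from 1849 and 1816 CPM to 1396 and 1437, a log2 fold change of -0.37 (SE 0.0339). RPS2, at the mRNA entry channel, fell by 0.30, from 2400.1 and 2453 CPM to 1907 and 2032. RPS19, the gene most often mutated in Diamond-Blackfan anemia, fell by 0.12 (edgeR adjusted p = 0.0144), a call that was lost without shCtl replicate 2 (0.0628) or without shMAML2 replicate 1 (0.0932).

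RPS6, the substrate of the S6 kinases, did not pass the test, with 1469.7 and 1424 CPM in shCtl and 1409 and 1389.5 in shMAML2. The 95% interval of its log2 fold change was -0.12 to 0.03. It was called lower with total counts, with no filter on low counts and on the RPKM scale. RPS14, whose loss marks the 5q- syndrome, had a log2 fold change of -0.0094 with an interval from -0.09 to 0.07. RPS4X, the X-linked member of the small subunit (chrX:72255679-72277248), rose from 1499 and 1508 CPM to 1761 and 1856, a log2 fold change of 0.27 (SE 0.0356, edgeR adjusted p = 1.42e-05). RPS18, among the most abundant, had a log2 fold change of 0.16, from 1429 and 1399 CPM to 1467 and 1701, which was 0.06 without shMAML2 replicate 2 and no longer passed (edgeR adjusted p = 0.185), and which was also lost with DESeq2 and on the RPKM scale.

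Of the 43 usual large subunit genes outside the stalk, 13 fell (30.2%, beside 36.4% of all genes tested), 9 rose (20.9%, beside 36.3%) and 21 did not pass the test, with a median log2 fold change of -0.02. RPL12, which sits at the base of the stalk and had the highest RPKM of all members in shCtl (2363 ± 18.9, SD, n = 2), fell to 1718 RPKM. In CPM it went from 1722 and 1732 to 1276 and 1354, a log2 fold change of -0.39 (SE 0.0368, edgeR adjusted p = 4.27e-07). RPL3, a core protein near the peptidyl transferase center, fell almost alike, from 2962 and 2977 CPM to 2199 and 2341. RPL10 (chrX:154389955-154409168), which joins late in assembly, rose from 915 and 957 CPM to 1159.98 and 1196, a log2 fold change of 0.33 (SE 0.0374, edgeR adjusted p = 2.72e-06). With RPS4X, RPL22, RPL31 and RPL27A it makes up the 5 members called higher in every setting. Of these 5, RPL10 (DNASE1L1), RPL22 (RNF207), RPL31 (TBC1D8) and RPL27A (DENND2B) overlap a gene on the opposite strand, whose reads the counts cannot separate, as do 27 of all 83 members.

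RPL31 and RPL27A rose by smaller amounts, with log2 fold changes of 0.22 (SE 0.0494) and 0.21 (SE 0.0409). The value of RPL31 was 0.13 without shMAML2 replicate 2 and 0.30 without shMAML2 replicate 1. RPL31 went from 555 and 556 CPM to 609 and 684, and RPL27A from 1104 and 1119 to 1235 and 1339. RPL5 and RPL11 carry 5S ribosomal RNA in the 5S particle, which can bind MDM2, and their log2 fold changes were alike in size. RPL5 fell by 0.12 (SE 0.0334, edgeR adjusted p = 0.00477), from 1380.3 and 1373 CPM to 1259 and 1270.4. RPL11 had 919.5 and 779 CPM in shCtl and 716 and 868 in shMAML2, so its groups overlapped and its log2 fold change of -0.10 did not pass. Without shCtl replicate 2 RPL11 was called lower at -0.22, and without shMAML2 replicate 2 at -0.24, and it was also called with no filter on low counts. RPL13A, a widely used reference gene, had a log2 fold change of 0.05 with a 95% interval from -0.03 to 0.14. It was called higher at 0.11 without shMAML2 replicate 1 and lay at -0.0061 without shMAML2 replicate 2.

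The stalk proteins, which recruit the translational GTPases to the large subunit, went in both directions. RPLP0, which anchors the stalk, fell from 2924 and 2953 CPM to 2623 and 2717, a log2 fold change of -0.14 (SE 0.0320, edgeR adjusted p = 0.00156). RPLP1 rose from 1349 and 1433 CPM to 1479 and 1530.4, a log2 fold change of 0.11, but was not called with total counts, on the RPKM scale, without shCtl replicate 1 or without shMAML2 replicate 2. RPLP2 had 520.03 and 542 CPM in shCtl and 470.1 and 540.2 in shMAML2, and its log2 fold change of -0.07 did not pass the test. It was called lower at -0.17 without shMAML2 replicate 2 and at -0.10 with no filter on low counts.

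For the 35 members that did not pass, the data still limit the size of a change. Their 95% intervals had a median reach of 0.0992 to either side on the log2 scale, and all 35 lay between -0.5 and 0.5. The most negative bound was -0.43, for RPL38, and the most positive was 0.24, for RPL41. Together the 83 genes took 7.57% and 7.52% of all counts in shCtl and 6.90% and 7.34% in shMAML2. Both shMAML2 shares lay below both shCtl shares. After TMM scaling the log2 ratio of the summed counts was -0.05, and it was 0.0065 without shMAML2 replicate 1.

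Across genes, levels in RPKM are limited by the length that the authors' table assigns to each gene. In shCtl the mean RPKM of members ran from 18.5 for RPS29 to 2363 for RPL12, with a median of 598. Counts per RPKM were 21.0 times as high for RPS29 as for RPS21 and 17.1 times as high for RPS27L, although the coding lengths are 168, 249 and 252 bases. The low RPKM of RPS29 and RPS27L thus goes with a long assigned gene, and in CPM RPS29 stood at 172 and 149 in shCtl. Ratios of RPS27L to RPS27 carry the same limit in their level and not in their change, since the length cancels within a gene.

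The Diamond-Blackfan anemia genes, 19 of the members, went in both directions. Of them 8 fell (RPS7, RPS19, RPS26, RPS29, RPL5, RPL18, RPL26 and RPL35), or 42.1% beside 36.4% of all genes tested. Another 3 rose (RPS27, RPL27 and RPL31), or 15.8% beside 36.3%, and 8 did not pass, with a median of -0.09. Of ribosomal proteins that the symbol rule leaves out, FAU, which carries RPS30, fell by 0.28 (SE 0.0422), whereas RACK1, a scaffold protein of the small subunit, had a log2 fold change of 0.06 and did not pass the test.

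The mitochondrial ribosomal proteins, which build the ribosome of the organelle, lay lower than the cytosolic ones. Of 78 such genes 57 fell (73.1%, beside 36.4% of all genes tested) and 1 rose (1.28%, beside 36.3%), with a median log2 fold change of -0.46 against -0.04 for the cytosolic members. MRPL39 was the lowest at -1.35 and MRPL36 the highest at 0.32. The difference between the lists is a description of their medians and was not tested.

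**Figure D4:**
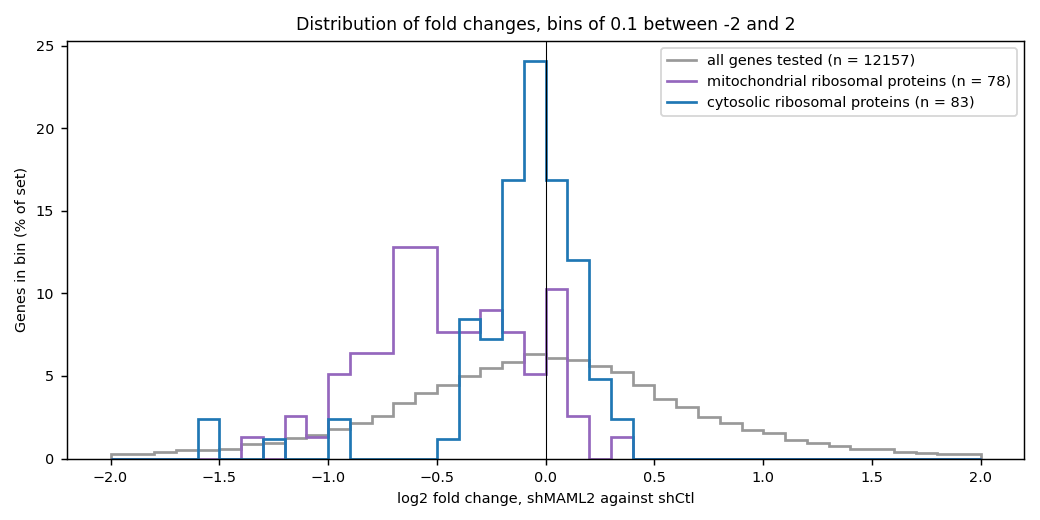
Share of genes (y axis, percent of each set) by log2 fold change of shMAML2 against shCtl (x axis, bins of 0.1, values beyond 2 in either direction not drawn) for the 83 cytosolic members, 78 mitochondrial ribosomal proteins and all 12157 genes tested. The cytosolic members form a narrow peak near 0 with 5 genes far to the left, and the mitochondrial set is centered at -0.46.

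Other mRNAs of the TOP class, which share the pyrimidine start, were also near 0 in the middle and wide at the ends. Of 21 tested, 5 fell (23.8%, beside 36.4% of all genes tested), 7 rose (33.3%, beside 36.3%) and 9 did not pass, with a median log2 fold change of -0.02. The elongation factor mRNAs EEF1A1 (0.06), EEF2 (-0.05) and EEF1B2 (-0.05) did not pass the test, and EEF1G rose by 0.19. TPT1, the translationally controlled tumor protein, had the largest rise at 0.50 (SE 0.0350), and NPM1, a nucleolar chaperone, fell furthest at -1.21 (SE 0.0454). PABPC1, the poly(A) binding protein, fell by 0.47 and HNRNPA1, a splicing factor, fell by 0.51.

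The noncoding TOP transcripts that host small nucleolar RNAs in their introns had 8 of 13 lower (61.5%, beside 36.4% of all genes tested), 2 higher (15.4%, beside 36.3%) and a median of -0.35. SNHG1 was the lowest at -1.35 (SE 0.0556), followed by SNHG12 at -1.10, while GAS5 stayed at 0.03 without passing the test and SNHG32 was the highest at 0.33. Of the 9 genes that control the TOP class, 4 fell and 4 rose (44.4% each, beside 36.4% and 36.3% of all genes tested). EIF4EBP1, a translation repressor that mTORC1 inactivates, fell from an RPKM of 156 to 64.6 (-1.21, standard error 0.0567), and EIF4EBP2, its relative, rose from 9.63 to 21.999 (1.26, standard error 0.0445). MTOR rose by 0.80, RPTOR, the mTORC1 scaffold, by 0.95 and RPS6KB1, an S6 kinase, by 0.53, and LARP1 fell by 0.12. These are mRNA levels, and neither kinase activity nor translation was measured.

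Of 11 chaperones and importers that bring ribosomal proteins to the nucleolus, 5 fell (45.5%) and 4 rose (36.4%), shares near the 36.4% and 36.3% of all genes tested. PDCD2L was the lowest at -1.59 (SE 0.192) and the importin IPO5 fell by 0.87, while GRWD1, the chaperone of RPL3, rose by 0.57 and HEATR3, which imports RPL5, rose by 0.45. RNA polymerase I makes the large ribosomal RNA precursor. Of 14 of its subunits and initiation factors, 9 fell (64.3%, beside 36.4% of all genes tested) and 4 rose (28.6%, beside 36.3%), with a median of -0.35. TAF1D was the lowest at -0.85 (SE 0.0591) and the subunit POLR1D fell by 0.76, while the factor UBTF rose by 0.85 (SE 0.0625) and the largest subunit POLR1A rose by 0.57.

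Promoter letters were compared within the 300 bases from 250 before to 50 after each RefSeq start, on both strands. The ETS core CTTCCG, which can follow from the end of a pyrimidine run, was present in 42 of 67 members (62.7%), against 19.9% of all 27195 promoters and 34.0% of the 9571 that belong to tested genes, and in 3 of the 5 paralogs with an entry (RPL7L1, RPL36AL and RPS27L). The palindrome TCTCGCGA was present in 11 members (16.4%), all of them usual genes, against 1.18% of all promoters and 2.59% of those of tested genes. The E-box CACGTG was found in 4 members (5.97%), against 7.45% and 10.2%, and the TEAD motif GGAATG in 4 (5.97%), against 14.0% and 10.9%. RPL7L1 was the paralog with an E-box, and 0 of the 5 held the TEAD letters. These matches describe the letters in this window and no binding.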

How the data were processed

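Per the labels and the study's methods, the authors aligned paired reads of 150 bases to hg38 with HISAT2 2.0.4, removed ambiguous and poorly mapped reads and quantified RefSeq genes with Partek 7.18. The deposited estimated counts carry no normalization. In each library 42.4% to 48.6% of them are exactly whole, zeros included, so they were rounded. The deposited RPKM values divide them by gene length and library size.

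The rounded counts were tested with edgeR 4.0.16 in R 4.3.3 (TMM, estimateDisp, glmQLFit, glmQLFTest, no block) over the 12157 genes that passed 1 RPKM in any library, and p-values were adjusted over all of these by the Benjamini-Hochberg method. Called genes have an adjusted p of 0.05 or less, and the limit of 2-fold is named where used. Standard errors are the log2 fold change over the square root of F. Depth was 20051083 to 23978660 counts per library, and SD values rest on 2 libraries.

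Alternatives were DESeq2 1.42.0, total counts, TMM without the members, other filters, a replicate block, limma 3.58.1 on the log2(RPKM) scale with a pseudocount of 0.1 or 1, a 1.5-fold limit and each library left out. With a library left out, 1 group held 1 library and the spread came from the other group alone. Calls gained or lost in those fits are therefore descriptive. The members, lists and tests were chosen with earlier results of these data known. Named members were the 6 lowest and 6 highest, the 5 with the highest RPKM, those called at 2-fold, the paralogs with partners, the stalk and 8 well known genes. RPL3, RPL21, RPL38, RPS21 and RPL41, and others in counts, were named after their values were seen, as were list members other than the lowest and highest. RPL10L was not analysed here, and RPL3L was below the limit on low values. Gene positions, coding lengths and pseudogenes come from GENCODE v44 on hg38, and promoters from RefSeq on GRCh38.p14, the same assembly. The RNA polymerase I subunits POLR1F, POLR1G and POLR1H stand under older symbols in the tables.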

Additional observations from a re-analysis of the deposited data

How the results depend on the processing

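The number of members that rose moved most: 17 became 10 with total counts, 5 on the log2(RPKM + 0.1) scale and 5 on the log2(RPKM + 1) scale, and lay between 6 and 30 when a library was left out. The number that fell stayed between 25 and 43 over all settings. The log2(RPKM) settings used limma in place of edgeR, so they changed the scale and the test together. At a 1.5-fold limit 5 members in place of 3 were called lower and 0 higher, beside 18.9% of all genes tested in each direction. With a library left out, the median log2 fold change lay between -0.13 and 0.028 for all members and between -0.13 and 0.049 for the large subunit. Both were above 0 only without shMAML2 replicate 1, where the log2 ratio of the summed counts was also above 0 (range -0.10 to 0.0065). The median of small subunit members was -0.012 without shMAML2 replicate 1 and -0.11 without shMAML2 replicate 2. The replicate numbers are not known to mark a shared batch, and over 11051 genes same-numbered libraries deviated with a correlation of 0.02, and over the members of -0.58. With the replicate block 30 members fell and 16 rose, beside 36.2% and 36.3% of all genes tested, with 3 lower at 2-fold, beside 8.88%, and the medians were -0.04 for all members, -0.055 for the small subunit and -0.02 for the large. Of the values of 31 named members under 12 alternatives, 330 kept their side of the threshold, 32 lost the call and 10 gained it, and none was called in opposite directions. RPL39L had the lowest level in CPM of the members, with 156 to 398 estimated counts per library, and the largest SE, 0.134. The part of depth in that SE was not tested.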
